A study of Mus musculus with 8 samples.

Results

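The genes described here are the 10 genes of the growth hormone, prolactin receptor and IGF1 axis of the liver, taken by symbol from the 55450 genes of the deposited tables: the receptors Ghr and Prlr, the signal transducer Stat5b and its feedback inhibitor Socs2, the hormone Igf1, its carrier Igfals, and the binding proteins Igfbp1, Igfbp2, Igfbp3 and Igfbp4. All 10 had enough reads to be tested. RNA with poly(A) tails was sequenced from 8 mouse livers. The KO livers (n = 4) came from CebpaΔHep mice, which carry Cre and lack Cebpa in hepatocytes, and the WT livers (n = 4) from Cebpa fl/fl mice without Cre. Both groups thus carry the floxed allele, both entered the study at 10 weeks of age with body weights matched, and both were fed 5% ethanol in liquid food during 4 weeks after 5 days on the ethanol-free form. The promoter that drives Cre is not given in the sources used here. Livers without ethanol were not analysed here, so the values compare genotypes under ethanol feeding only. The labels do not say that each library came from its own animal, so p-values measure the spread between these samples, which may be technical.

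As background, growth hormone from the pituitary binds GHR on hepatocytes, whose kinase JAK2 phosphorylates STAT5B. STAT5B then enters the nucleus and switches on Igf1, Igfals and Socs2, and SOCS2 dampens the receptor in turn. Most circulating IGF1 comes from hepatocytes and travels in a complex with IGFBP3 and the acid-labile subunit that Igfals encodes, while IGFBP1 responds to insulin and fasting. In mouse liver the rhythm of growth hormone differs between the sexes and sets many sex-biased genes. The deleted gene, Cebpa, encodes C/EBP alpha, which maintains the differentiated state of hepatocytes.

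Each liver had between 21048350 and 28148744 expected counts, the read estimates of RSEM that divide shared reads among genes. Cebpa was at 5.44 to 9.26 CPM (counts scaled by library size) in the KO livers and at 264 to 320.3 CPM in the WT livers, so the deleted gene followed the labels in all 8. Hepatocyte markers were abundant in both groups, with the 8 listed genes summing to 114153 to 130436 CPM in KO livers and 92336 to 130292 CPM in WT livers, with none of the 8 called by edgeR, 1 by DESeq2 and 2 at an unadjusted p below 0.05. The Y-linked gene Ddx3y was at 55.1 to 75.2 CPM across the livers. The edgeR quasi-likelihood test, adjusted over 13303 genes by Benjamini-Hochberg with a threshold of 0.05, called 113 genes higher and 161 lower in KO livers, and the split was 161 and 115 with library size alone as scaling, 96 and 139 by limma-voom, and 115 and 80 on log2(TPM + 1) values. KO liver 4 and WT liver 2 stood apart from their groups. The chi-square per gene between WT liver 2 and the other WT livers was 103 to 159, against 28.1 to 52.1 among those, and that between KO liver 4 and the other KO livers was 55.3 to 61.9, against 36.1 to 42.4. Where leaving out both changed a call or a direction, or moved a value of these genes by over 1.5 times, that value is given too.

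Of the 10 genes, Prlr and Igfals fell in the KO livers and none rose. Over all genes tested, the same test called 2.06%, with 1.21% lower and 0.849% higher. DESeq2 called 3 of the 10, adding Igfbp3 as higher, where it called 5.8% of all genes. The same 3 had an unadjusted p below 0.05 in edgeR. Prlr was 3.30-fold lower and Igfals 1.55-fold lower. Igfbp3 was 1.99-fold higher in KO livers without passing the test, and the receptor Ghr, the transducer Stat5b, the hormone Igf1 and the abundant binding protein Igfbp4 had log2 fold changes between -0.17 and 0.12. The median log2 fold change of the 10 genes was -0.12, beside 0.00 over all genes tested, with 4 positive and 6 negative values. The CPM values of KO and WT livers did not overlap for 3 of the 10 genes, Prlr, Igfals and Igfbp3, where 11.5% of all genes tested had no overlap. In bulk liver RNA, a change in the number of cells of a type and a change in RNA per cell cannot be told apart.

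**Figure D1:**
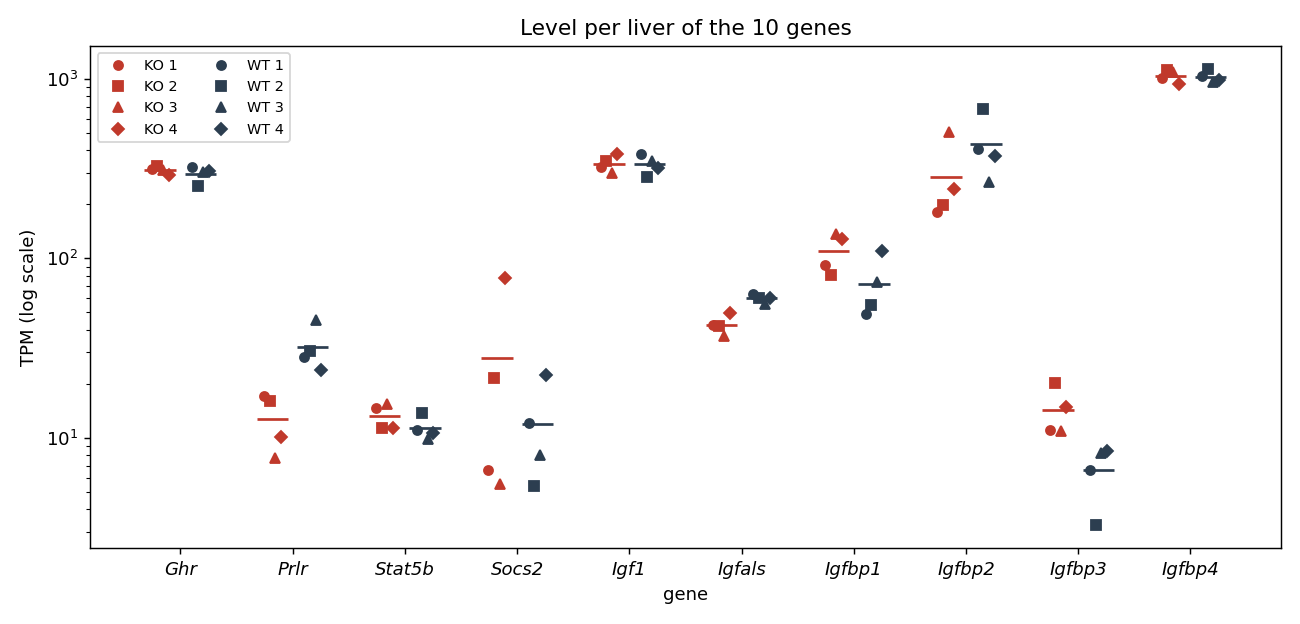
TPM (a share of transcripts corrected for length, log axis) of the 10 genes in each liver, with KO livers in red left of WT livers in dark blue, 1 symbol per replicate number and a bar at each group mean (n = 4). Prlr and Igfals sit lower and Igfbp3 higher in every KO liver than in any WT liver, while Ghr, Igf1 and Igfbp4 lie at like levels in both groups.

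On the per-length scale of TPM, Igfbp4 led the group in both genotypes, at 1039 ± 83.5 TPM in KO livers and 1032 ± 80.2 TPM in WT livers (SD, n = 4). In KO livers the order below it was Igf1, Ghr, Igfbp2, Igfbp1, Igfals, Socs2, Igfbp3, Stat5b and Prlr. In WT livers it was Igfbp2, Igf1, Ghr, Igfbp1, Igfals, Prlr, Socs2, Stat5b and Igfbp3. In KO livers the values of Igf1, Ghr and Igfbp2 overlapped between neighbours, as did those of the 5 lowest genes, from Igfals to Prlr. In WT livers they overlapped between Igfbp2, Igf1 and Ghr, between Igfbp1 and Igfals, and between Socs2 and Stat5b. The order of neighbours that overlap is not resolved by 4 livers. In KO livers, Igfals at 37.2 to 49.5 TPM still lay above Igfbp3, Stat5b and Prlr, which reached 20.2, 15.4 and 17.0 TPM. In WT livers, Prlr at 32.0 ± 9.13 TPM stood clear of both neighbours, Igfals at 60.0 ± 3.28 TPM and Socs2 at 12.0 ± 7.49 TPM (SD, n = 4).

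**Figure D2:**
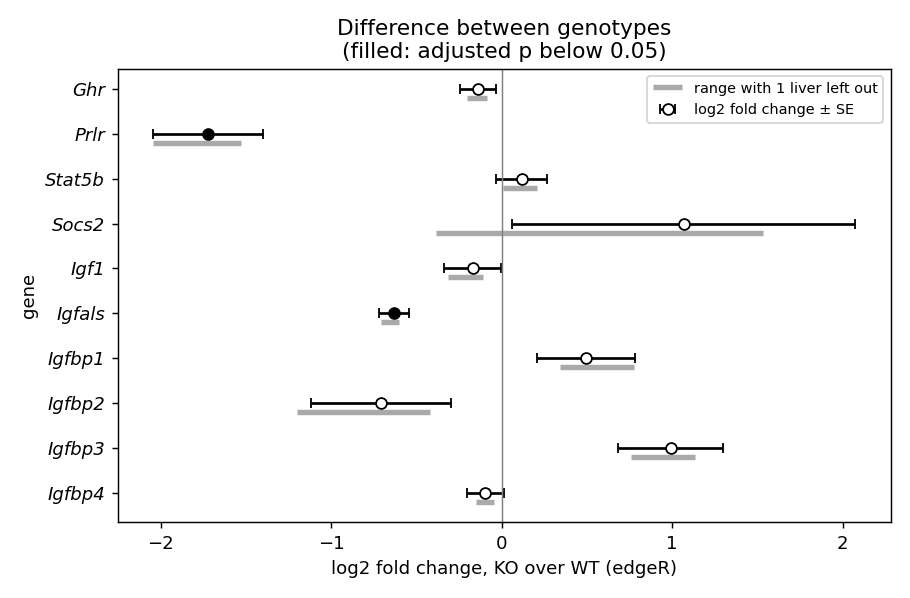
Log2 fold change of KO over WT livers by edgeR for each of the 10 genes (points, with the SE as bars; filled where the adjusted p is below 0.05), above a grey bar for the range over the 8 fits that leave out 1 liver. Prlr and Igfals are the filled points at -1.72 and -0.63, and the grey bar of Socs2 crosses 0.

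The starts of genes that fell, and of Igfbp1, are shown because they carry letters of the factors named above. RefSeq on GRCm38.p6 gave promoters for 9 of the 10 genes, in 16 windows, and the 250 bases before each start were searched on both strands for TTGCNNAA (a C/EBP pattern, TTNNGCAA on the other strand), for TTCNNNGAA (the STAT5 pattern, which reads the same on both strands) and for TGTTTTG (the FOXO pattern of insulin-responsive promoters, CAAAACA on the other strand). These patterns occur in 9.56%, 7.02% and 5.56% of all 32851 promoter windows of that length. A C/EBP pattern was found in 2 of the 16 windows, both of Prlr, a STAT5 pattern in 3, of Prlr and Igfals, and a FOXO pattern in 1, of Igfbp1. Printed below, 5′ to 3′, are the windows with a match whose start lies within 100 bases of a GENCODE transcript start, with the matched letters in capitals.
Prlr, chr15:10176988-10177237, plus strand, before the first start: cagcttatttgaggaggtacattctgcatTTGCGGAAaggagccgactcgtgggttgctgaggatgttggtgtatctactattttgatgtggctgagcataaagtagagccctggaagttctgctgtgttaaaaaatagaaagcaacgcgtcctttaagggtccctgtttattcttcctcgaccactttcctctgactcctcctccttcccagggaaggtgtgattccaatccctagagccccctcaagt
Prlr, chr15:10223656-10223905, plus strand, before the start of the coding transcripts Prlr-204, Prlr-205 and Prlr-212: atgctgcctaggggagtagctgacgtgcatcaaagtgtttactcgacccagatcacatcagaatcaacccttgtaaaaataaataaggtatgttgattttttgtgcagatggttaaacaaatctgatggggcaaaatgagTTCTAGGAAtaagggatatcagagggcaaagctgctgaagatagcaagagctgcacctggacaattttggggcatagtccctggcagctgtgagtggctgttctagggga
Igfals, chr17:24877981-24878230, plus strand, before the start near Igfals-202 and the coding transcript Igfals-201: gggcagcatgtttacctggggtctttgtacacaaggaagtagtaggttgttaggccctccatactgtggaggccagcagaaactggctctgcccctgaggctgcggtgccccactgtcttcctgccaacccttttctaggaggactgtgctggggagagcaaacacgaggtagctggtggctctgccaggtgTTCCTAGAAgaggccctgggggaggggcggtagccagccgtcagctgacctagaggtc
Igfbp1, chr11:7197537-7197786, plus strand, before its only start: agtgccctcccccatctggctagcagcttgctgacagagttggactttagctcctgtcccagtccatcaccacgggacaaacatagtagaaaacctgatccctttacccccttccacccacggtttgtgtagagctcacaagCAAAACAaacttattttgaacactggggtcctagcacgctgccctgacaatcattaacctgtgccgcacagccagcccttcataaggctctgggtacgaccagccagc
The capitals in the Prlr windows are TTGCGGAA, with its first base 221 bases before the start, and TTCTAGGAA, 110 bases before it. Those in the Igfals window are TTCCTAGAA, 58 bases before the start, and those in the Igfbp1 window are CAAAACA, 108 bases before it. The first Prlr start is that of Prlr-201, a transcript without a coding sequence, while the coding transcript Prlr-202 starts further on, at 10177655. None of the matches overlapped another. They describe letters only, and factor binding was not measured here.

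Ghr, the growth hormone receptor (ENSMUSG00000055737.12, chromosome 15, 3317760 to 3583492 on mm10, minus strand), had like read levels in both groups. Its level was 594, 569, 584 and 498 CPM in KO livers 1 to 4 and 684, 533, 608 and 647 CPM in WT livers 1 to 4. The groups overlapped, with a log2 fold change of -0.14 (SE 0.11, adjusted p = 0.526 by edgeR). On log2(TPM + 1) values the difference was 0.07 (SE 0.09), on a scale where the median of all genes was 0.09.

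The mean transcript length of Ghr separated the groups. RSEM reports for each gene a mean transcript length, weighted by the estimated share of each transcript, which moves only when the mix of transcripts moves. For Ghr this length was 2670, 2666, 2606 and 2514 bases in KO livers 1 to 4 and 2722, 2856, 2746 and 2769 bases in WT livers 1 to 4. Every KO value was below every WT value, with means of 2614 ± 72.8 bases in KO livers and 2773 ± 58.2 bases in WT livers (SD, n = 4). Among 11262 tested genes with more than 1 transcript, 3.8% had no overlap between the groups and 2.1% were shorter in KO livers throughout. Of the 10 genes, 9 have more than 1 transcript, and Ghr was the 1 of these without overlap.

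GENCODE M21 lists 10 Ghr transcripts. Ghr-201 (4175 bases) and Ghr-208 (2749 bases) encode the full receptor of 650 codons, and Ghr-202 (1213 bases) and Ghr-203 (1171 bases) have coding sequences of 297 codons. In mice, a short spliced form of this kind is known to encode the growth hormone binding protein, a secreted form of the receptor without the membrane-spanning segment. The full and short forms share their first 811 coding bases and then take different exons. Their own coding sequence after the split is shown in capitals, after 21 shared bases in lower case, because this is where receptor and binding protein part.
Ghr-201, full length, first 90 of its own bases, chr15:3325899-3325988, minus strand: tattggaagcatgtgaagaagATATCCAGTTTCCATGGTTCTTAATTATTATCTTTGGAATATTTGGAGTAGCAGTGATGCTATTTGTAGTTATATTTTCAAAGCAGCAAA
Ghr-203, short form, all 80 of its own bases, chr15:3327607-3327686, minus strand: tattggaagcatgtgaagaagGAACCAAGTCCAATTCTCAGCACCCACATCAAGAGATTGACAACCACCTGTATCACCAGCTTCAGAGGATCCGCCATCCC
The deposited tables give no level per transcript. Which of the transcripts make up the difference cannot be read from them.

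**Figure D3:**
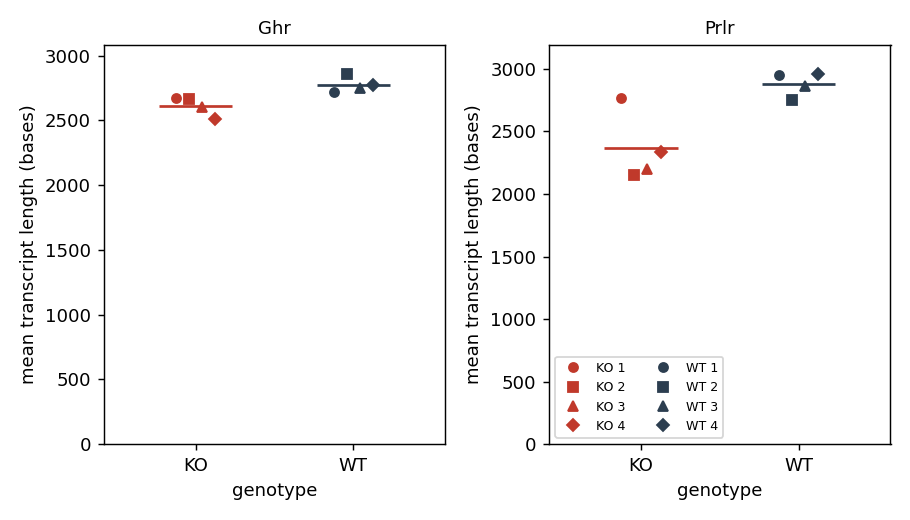
Mean transcript length in bases, weighted by transcript abundance, of Ghr and Prlr in each liver, with KO livers left of WT livers and a bar at each group mean (n = 4). For Ghr the KO livers lie between 2514 and 2670 bases and the WT livers between 2722 and 2856, while for Prlr KO liver 1 at 2768 bases reaches the WT range.

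Prlr, the prolactin receptor (ENSMUSG00000005268.20, chromosome 15, 10177238 to 10349180, plus strand, overlapping Gm21973, which was at or below 0.0451 CPM), had the larger fold change of the 2 genes called. Prolactin signals through it to the same STAT5 proteins, and in mouse liver it is known to be higher in females. Its level was 33.3, 22.3, 12.0 and 16.0 CPM in KO livers 1 to 4 and 65.2, 61.3, 94.8 and 54.3 CPM in WT livers 1 to 4. All KO livers lay below all WT livers, with KO liver 1 highest of the KO group. This gave a log2 fold change of -1.72 (SE 0.32, adjusted p = 0.0404 by edgeR). The call was close to the threshold. It was lost in 7 of the 8 fits that left out 1 liver, all but the fit without KO liver 1, with log2 fold changes of -2.05 to -1.53 and adjusted p of 0.0195 to 0.119. Without KO liver 4 and WT liver 2 together it was -1.67 (adjusted p = 0.129). DESeq2 gave an adjusted p of 2.37e-07.

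The transcript mix of Prlr was also shorter in 3 of the 4 KO livers. The mean length was 2768, 2153, 2197 and 2335 bases in KO livers 1 to 4 and 2954, 2752, 2866 and 2956 bases in WT livers 1 to 4. Only KO liver 1 and WT liver 2 crossed, so leaving out either one separates the groups by necessity. The lengths of Prlr rest on 262 to 2250 expected counts per liver, divided among 12 transcripts. The receptor has a long form with the full cytoplasmic tail and several short forms, which share the first 840 coding bases here. Prlr-202 (9900 bases, 608 codons) is the long form in GENCODE M21, and Prlr-205 (3836 bases, 310 codons), Prlr-212 (1190 bases, 303 codons) and Prlr-204 (1278 bases, 292 codons) are short forms. The long form and the longest short form are shown at the point where their coding sequences part, with 21 shared bases in lower case and their own bases in capitals.
Prlr-202, long form, first 90 of its own bases, chr15:10328281-10328370, plus strand: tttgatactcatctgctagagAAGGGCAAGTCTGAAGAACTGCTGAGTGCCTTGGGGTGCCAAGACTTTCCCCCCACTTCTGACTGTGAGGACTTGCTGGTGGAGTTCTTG
Prlr-205, short form, all 90 of its own bases, chr15:10346410-10346499, plus strand: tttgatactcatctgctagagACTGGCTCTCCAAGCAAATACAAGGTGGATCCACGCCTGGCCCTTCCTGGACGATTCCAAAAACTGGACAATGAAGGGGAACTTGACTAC
The level of Prlr can also be set against that of Ghr within each liver. In TPM, Prlr stood at 5.40%, 4.93%, 2.47% and 3.47% of Ghr in KO livers 1 to 4 and at 8.73%, 12.0%, 14.9% and 7.82% in WT livers 1 to 4. The groups did not overlap in this ratio, which was chosen after the values were seen and was not tested.

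Stat5b, which carries the growth hormone signal to the nucleus (ENSMUSG00000020919.11, chromosome 11, 100780731 to 100850724, minus strand), was at 53.1, 38.1, 56.9 and 40.2 CPM in KO livers 1 to 4 and at 43.3, 51.5, 36.7 and 41.9 CPM in WT livers 1 to 4. The groups overlapped throughout, with a log2 fold change of 0.12 (SE 0.15, edgeR adjusted p = 0.706). With 1 liver left out it ran from 0.0066 without KO liver 3 to 0.21 without WT liver 2, and without KO liver 4 and WT liver 2 together it was 0.28 (adjusted p = 0.332). Stat5b and its close relative Stat5a share sequence, and the division of shared reads is RSEM's.

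Socs2, the feedback inhibitor that growth hormone induces (ENSMUSG00000020027.18, chromosome 10, 95385362 to 95417180, minus strand), had the largest SE of the 10 genes. It was at 7.50, 27.7, 6.76 and 112 CPM in KO livers 1 to 4 and at 20.2, 7.57, 11.8 and 34.0 CPM in WT livers 1 to 4. KO liver 4 was above all other livers, and KO livers 1 and 3 were below all of the WT group. KO over WT, the log2 fold change came to 1.07 (SE 1.01, adjusted p = 0.612 by edgeR), and without KO liver 4 it was -0.39 (adjusted p = 0.784). The direction for Socs2 thus rests on that 1 liver.

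**Figure D4:**
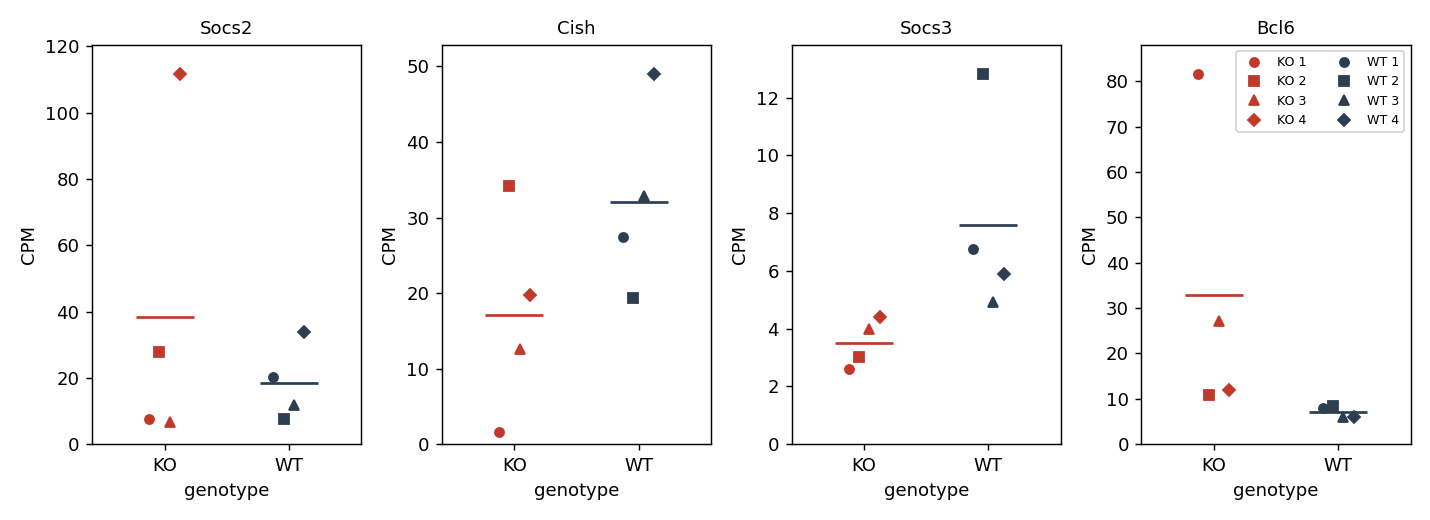
CPM of Socs2 and of 3 other genes set by growth hormone or cytokine signals, Cish, Socs3 and Bcl6, in each liver, with KO livers left of WT livers and a bar at each group mean (n = 4). KO liver 4 is highest for Socs2, and KO liver 1 is lowest for Cish and highest for Bcl6.

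Of 17 other genes that act at or below the growth hormone and prolactin receptors, 16 were tested and edgeR called none, with 6 at an unadjusted p below 0.05, against 18.5% of all genes tested. The groups did not overlap for 4 of the 16, Sirpa, Stat3, Socs3 and Bcl6, beside 11.5% of all genes. The 2 with the smallest adjusted p were Sirpa and Stat3. Sirpa, an inhibitory receptor of macrophages and other cells, was at 19.0 ± 4.25 CPM in KO livers and 10.3 ± 2.52 CPM in WT livers (SD, n = 4, edgeR adjusted p = 0.0593). Stat3, the transducer of interleukin-6, was at 81.3 ± 5.00 CPM in KO livers and 102 ± 7.09 CPM in WT livers (SD, n = 4, edgeR adjusted p = 0.0665). Without KO liver 4 and WT liver 2 together, edgeR called both Sirpa and Stat3. That pair holds the highest WT liver for both genes and the highest KO liver for Stat3, and the fit was added after the data were seen. DESeq2, which called 5.8% of all genes, called 4 of the 17, Sirpa and Bcl6 higher and Stat3 and Socs3 lower. Socs3, chosen after its values were seen, was at 3.50 ± 0.833 CPM in KO livers and 7.60 ± 3.55 CPM in WT livers (SD, n = 4, edgeR adjusted p = 0.104). The median log2 fold change of the list was -0.07.

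Cish and Bcl6, chosen here after their values were seen, sit at opposite ends of growth hormone signalling, since STAT5 is known to induce Cish and to repress Bcl6 in mouse liver. Cish was at 1.66, 34.2, 12.6 and 19.8 CPM in KO livers 1 to 4 and at 27.4, 19.3, 32.8 and 49.0 CPM in WT livers 1 to 4. Bcl6 was at 81.5, 10.8, 27.1 and 12.0 CPM in KO livers 1 to 4 and at 7.90, 8.35, 5.98 and 5.99 CPM in WT livers 1 to 4. Within the KO group the livers lowest in Cish, 1 and 3, were the highest in Bcl6, and the same 2 were the lowest in Socs2. Bcl6 did not overlap between the groups but did not pass edgeR's test (log2 fold change 2.22, SE 0.70, adjusted p = 0.160), and Cish overlapped (log2 fold change -0.91, SE 0.73, adjusted p = 0.550). The kinase gene Jak2 was at 17.6 to 18.9 CPM in KO livers and 17.7 to 19.3 CPM in WT livers.

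Igf1 (ENSMUSG00000020053.18, chromosome 10, 87858265 to 87937042, plus strand) was at 415, 402, 383 and 524 CPM in KO livers 1 to 4 and at 528, 332, 526 and 553 CPM in WT livers 1 to 4. KO liver 4 was highest of the KO livers and WT liver 2 lowest of all 8. Their log2 fold change of -0.17 (SE 0.17, adjusted p = 0.621 by edgeR) did not pass, and on log2(TPM + 1) values it was 0.02 (SE 0.11). Without KO liver 4 and WT liver 2 together, it was -0.43 (SE 0.09, adjusted p = 0.0353 by edgeR), a call that no other fit gave. This fit was added after the data were seen, and removing the highest KO and lowest WT liver widens the difference by itself. Igf1os, which overlaps Igf1 on the other strand, was at 0.277 to 0.843 CPM.

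Igfals, whose product holds IGF1 and IGFBP3 in the large plasma complex (ENSMUSG00000046070.9, chromosome 17, 24865997 to 24882010, plus strand), fell in the KO livers. Its level was 58.5, 60.0, 56.0 and 70.3 CPM in KO livers 1 to 4 and 101, 93.6, 87.4 and 97.8 CPM in WT livers 1 to 4. The highest KO liver, number 4, was below the lowest WT liver, number 3, and both groups were narrow, at 61.2 ± 6.29 CPM in KO livers and 94.8 ± 5.73 CPM in WT livers (SD, n = 4). By edgeR the log2 fold change stood at -0.63 (SE 0.09, adjusted p = 0.00823). Igfals was called in all 8 fits that left out 1 liver, with log2 fold changes of -0.71 to -0.60 and adjusted p of 0.00269 to 0.0357, and in each of the 11 other fits.

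The components of the plasma complex can be compared within each liver. Per unit of Igf1 TPM, Igfals stood at 13.1%, 12.1%, 12.5% and 13.0% in KO livers 1 to 4 and at 16.7%, 21.2%, 15.9% and 18.8% in WT livers 1 to 4. Igfbp3 stood at 3.42%, 5.79%, 3.65% and 3.92% of Igf1 in KO livers 1 to 4 and at 1.72%, 1.14%, 2.34% and 2.64% in WT livers 1 to 4. Neither ratio overlapped between the groups. Both were chosen after the values of the genes were seen and are given without a test.

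**Figure D5:**
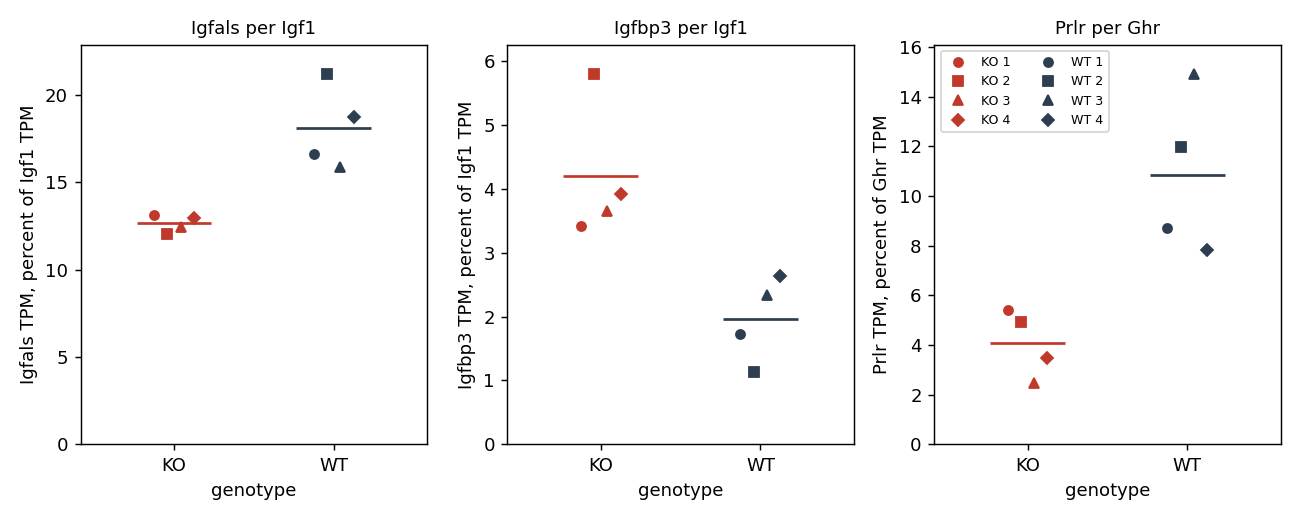
Ratios of TPM within each liver, in percent: Igfals per Igf1, Igfbp3 per Igf1 and Prlr per Ghr, with KO livers left of WT livers and a bar at each group mean (n = 4). The KO livers lie lower for Igfals per Igf1 (12.1% to 13.1%) and Prlr per Ghr and higher for Igfbp3 per Igf1, with no overlap in any of the 3 panels.

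Igfbp3, the main carrier of IGF1 in plasma (ENSMUSG00000020427.11, chromosome 11, 7206086 to 7213923, minus strand), was higher in every KO liver than in any WT liver but did not pass edgeR's test. Its level was 18.3, 31.2, 18.3 and 24.1 CPM in KO livers 1 to 4 and 11.8, 5.39, 13.9 and 15.0 CPM in WT livers 1 to 4. KO liver 2 was the highest and WT liver 2 the lowest. Its log2 fold change was 0.99 (SE 0.31, adjusted p = 0.143 by edgeR, DESeq2 adjusted p = 0.0181), and it ran from 0.76 to 1.13 with 1 liver left out.

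In rodent liver Igfbp3 is known to be made mainly outside hepatocytes, by endothelial and Kupffer cells, and markers of those cells had positive log2 fold changes too. All 6 endothelial genes had a positive log2 fold change (median 0.32) and none was called, with summed levels of 127 to 172 CPM in KO livers and 108 to 134 CPM in WT livers. All 6 macrophage and Kupffer genes were positive (median 0.61) and none was called, summing to 125 to 199 CPM in KO livers and 74.2 to 152 CPM in WT livers. The 6 stellate cell genes, all positive with a median of 0.55 and none called, summed to 98.2 to 280.1 CPM in KO livers and 57.5 to 104 CPM in WT livers. The 280.1 CPM was KO liver 2, where Col3a1 and Col1a1 were at 129 and 52.3 CPM. The other KO livers summed to 98.2 to 111 CPM. KO liver 2, the highest in Igfbp3, was also the highest in each of these 3 sums. WT liver 2, the lowest in Igfbp3, was the highest WT liver in the endothelial and macrophage sums (134 and 152 CPM). It was the lowest liver in the stellate cell sum (57.5 CPM). Of 6 cholangiocyte genes 5 were tested and 3 were called higher, Krt19, Epcam and Spp1, beside 0.849% of all genes. This list summed to 115 to 363 CPM in KO livers and 25.6 to 63.8 CPM in WT livers. Most of that sum was Spp1, at 107 to 353 CPM in KO livers and 21.3 to 58.1 CPM in WT livers. Of the lymphocyte list, only Ptprc had enough reads to be tested, and the list summed to 8.09 to 12.1 CPM in KO livers and 4.81 to 9.06 CPM in WT livers. The neutrophil genes Ly6g and Mpo had no count in any liver, and that list summed to at most 1.03 CPM. At an unadjusted p below 0.05 were 2 endothelial, 3 macrophage and Kupffer and 3 stellate cell genes, beside 18.5% of all genes. DESeq2 called 0, 1 and 0 of those lists, beside 5.8% of all genes. The part of these cells in the Igfbp3 difference was not tested.

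Igfbp1, which binds IGF1 acutely and is held down by insulin (ENSMUSG00000020429.7, chromosome 11, 7197782 to 7202546, plus strand), lies next to Igfbp3, with 3539 bases between the 2 genes. It was at 93.4, 76.0, 141 and 126 CPM in KO livers 1 to 4 and at 54.3, 57.9, 78.0 and 119.6 CPM in WT livers 1 to 4. WT livers 3 and 4 lay within the KO range. Igfbp1 had a log2 fold change of 0.50 (SE 0.29, adjusted p = 0.401 by edgeR), and it was positive in each of the 8 fits that left out 1 liver (0.34 to 0.78). Without KO liver 4 and WT liver 2 together it was 0.30 (adjusted p = 0.696).

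Igfbp2 (ENSMUSG00000039323.18, chromosome 1, 72824503 to 72852474, plus strand) varied widely within both groups. This binding protein is known to rise in fasting. It was at 153, 156, 437 and 197 CPM in KO livers 1 to 4 and at 377, 594, 232 and 336 CPM in WT livers 1 to 4. KO liver 3 was above 3 of the 4 WT livers, while the other KO livers were below all of them. Igfbp2 had a log2 fold change of -0.71 (SE 0.41, adjusted p = 0.402 by edgeR), which ran from -1.20 without KO liver 3 (adjusted p = 0.113) to -0.42 without WT liver 2 (adjusted p = 0.694). Without KO liver 4 and WT liver 2 together it was -0.35 (adjusted p = 0.739).

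Igfbp4, the most abundant of the 10 genes by TPM and a binding protein that restrains IGF action (ENSMUSG00000017493.12, chromosome 11, 99041244 to 99054392, plus strand), was at 1514, 1568, 1679 and 1363 CPM in KO livers 1 to 4 and at 1702, 1758, 1485 and 1602 CPM in WT livers 1 to 4. The groups overlapped, with a log2 fold change of -0.10 (SE 0.11, edgeR adjusted p = 0.664), and without KO liver 4 and WT liver 2 together the value was -0.012. The 4 binding protein genes together held 1446 ± 207 TPM in KO livers and 1542 ± 242 TPM in WT livers, of which Igfbp4 made up 72.6% ± 7.68 in KO livers and 67.5% ± 5.29 in WT livers (SD, n = 4).

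Among 19 other genes of IGF binding and reception, 13 were tested and 1 was called, beside 2.06% of all genes. Igfbp7, a secreted protein of endothelium and stroma that binds IGF weakly, rose 1.42-fold, at 55.4 ± 6.90 CPM in KO livers and 39.1 ± 3.24 CPM in WT livers (SD, n = 4, edgeR adjusted p = 0.0374). Its call was lost in 7 of the 8 fits that left out 1 liver, all but the fit without KO liver 4, where the adjusted p reached 0.0991 without WT liver 1, and it was 0.0586 without KO liver 4 and WT liver 2 together. The endothelial markers given with Igfbp3 had positive fold changes as well, and their part was not tested. The receptor genes Insr and Igf1r were at 159 ± 18.7 and 2.17 ± 0.311 CPM in KO livers and at 161 ± 16.7 and 1.66 ± 0.213 CPM in WT livers (SD, n = 4). The list had 7 positive and 6 negative log2 fold changes, with a median of 0.13. By edgeR 5 of the 13 had an unadjusted p below 0.05, beside 18.5% of all genes. The groups did not overlap for 3 of them, beside 11.5% of all genes. DESeq2 called 3 of the 19, all higher, beside 5.8% of all genes.

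Insulin and amino acid shortage are known to act on Igfbp1, so genes that respond to them were listed. Of 11 insulin and FOXO1 responsive genes, 1 was called, Trib1, beside 2.06% of all genes. Trib1, a pseudokinase of lipid metabolism that directs C/EBP alpha protein to breakdown, fell 2.40-fold. It was at 18.8 ± 7.20 CPM in KO livers, against 45.1 ± 5.64 CPM in WT livers (SD, n = 4, edgeR adjusted p = 0.0388). That call did not hold in 6 of the 8 fits on 7 livers, the adjusted p reaching 0.107 without KO liver 2, nor without KO liver 4 and WT liver 2 together (adjusted p = 0.0748). The median of that list was -0.12. By edgeR 3 of the 11 had an unadjusted p below 0.05, and 1 had no overlap. The shares of all genes were 18.5% and 11.5%. Of 10 ATF4 responsive genes (ATF4 is a transcription factor of the amino acid response), 9 were tested and none was called by edgeR or DESeq2, with 0 at an unadjusted p below 0.05 and a median of -0.11. The 2 with the smallest adjusted p were Sesn2, at 15.5 ± 5.07 CPM in KO livers and 12.1 ± 0.902 CPM in WT livers, and Psat1, at 0.314 ± 0.135 CPM in KO livers and 0.551 ± 0.258 CPM in WT livers (SD, n = 4).

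Many sex-biased genes of mouse liver depend on growth hormone. Of 18 male-biased genes 17 were tested, and Mup7, Cyp2u1 and Susd4 fell while none rose, beside 1.21% of all genes called lower. At an unadjusted p below 0.05 were 10 of the 17, and 6 had no overlap between the groups, beside 18.5% and 11.5% of all genes. DESeq2 called 7 of the 18, all lower. The median log2 fold change was -1.21, with 12 negative and 5 positive values. Susd4, a complement regulator, was at 0.607 ± 0.417 CPM in KO livers and 11.4 ± 2.96 CPM in WT livers (SD, n = 4, edgeR adjusted p = 0.00119). The cytochrome P450 gene Cyp2u1 was at 3.17 ± 0.359 CPM in KO livers and 7.72 ± 2.38 CPM in WT livers (SD, n = 4, edgeR adjusted p = 0.0177), a call lost in 3 of the 8 fits on 7 livers, the adjusted p reaching 0.0615 without KO liver 2. Mup7, a pheromone carrier gene with near-identical copies that share reads, was at 6.83 ± 4.38 CPM in KO livers and 885 ± 631 CPM in WT livers (SD, n = 4, edgeR adjusted p = 0.0116), with adjusted p = 0.0557 without KO liver 4 and WT liver 2 together. The other 3 genes without overlap, named after their values were seen, were lower in KO livers but did not pass edgeR's test. Slco1a1, an organic anion transporter gene, was at 185 ± 94.6 CPM in KO livers and 495 ± 71.6 CPM in WT livers (SD, n = 4, edgeR adjusted p = 0.0784). Mup1 was at 15.3 ± 9.01 CPM in KO livers and 90.7 ± 45.8 CPM in WT livers (SD, n = 4, edgeR adjusted p = 0.0980). Hsd3b5, a steroid enzyme gene, was at 3.34 ± 5.35 CPM in KO livers and 39.0 ± 21.3 CPM in WT livers (SD, n = 4, edgeR adjusted p = 0.165). Without KO liver 4 and WT liver 2 together, edgeR called Slco1a1, Hsd3b5 and Gstp1 lower. KO liver 4 was the highest KO liver for each of these genes, so its removal widens such a fall by itself. That fit was added after the data were seen. Cyp2d9 overlapped, at 1804 ± 221 CPM in KO livers and 1757 ± 162 CPM in WT livers (SD, n = 4).

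Of 19 female-biased genes 13 were tested and 1 was called higher, Ntrk2, beside 0.849% of all genes. Ntrk2, a neurotrophin receptor, rose 5.56-fold, at 2.92 ± 1.75 CPM in KO livers and 0.515 ± 0.238 CPM in WT livers (SD, n = 4, edgeR adjusted p = 0.0409). The call went in 6 of the 8 fits on 7 livers, the adjusted p reaching 0.108 without WT liver 1. None of the 13 was called lower with all 8 livers. Without KO liver 4 and WT liver 2 together 3 were called, Ntrk2 and Hao2 higher and Cyp2b9 lower. That pair holds the lowest KO and the lowest WT liver for both Hao2 and Cyp2b9, and the fit was added after the data were seen. In the fit on all 8 livers, 6 genes had a positive and 7 a negative log2 fold change, and the median was -0.15. By edgeR 5 of the 13 had an unadjusted p below 0.05, and 2 had no overlap. The shares of all genes were 18.5% and 11.5%. DESeq2 called 2 of the 19, both higher, beside 5.8% of all genes. Prlr, itself higher in female liver, is not on this list.

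The genes whose levels followed Prlr and Igfals most closely over the 8 livers were found by the root mean square difference of log2 CPM, each gene centred on its own mean, among 11113 genes. Nearest to Prlr were Celsr1 (0.38), an adhesion receptor of the cadherin group, D16Ertd472e (0.39) and Gramd1c (0.39). Their log2 fold changes were -1.96, -1.83 and -2.04, beside -1.72 for Prlr. Nearest to Igfals were Mfsd4b1 (0.08), Aqp11 (0.09), a water channel, and Ugt1a6b (0.10), a glucuronosyltransferase. Their log2 fold changes were -0.55, -0.51 and -0.73, beside -0.63 for Igfals. All 6 were called. The distance includes the step between the genotypes, so like fold changes follow from how these genes were picked. Their calls are no separate result. Nearness over 8 livers is a description with no test, and these genes share the livers and their depth with Prlr and Igfals.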

How the data were processed

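Poly(A) RNA of 8 livers was made into stranded libraries, per the labels' protocols. Per the submitters' processing notes, the tools were RSEM 1.2.22, STAR 2.5.1, Trimmomatic 0.36, Picard 1.84 and DESeq2, and the build mm10. The strand setting is not given in the sources used here. The deposited tables give the authors' RSEM expected counts, the deposited TPM and a deposited mean transcript length, another value in bases, per gene. All 55450 identifiers matched GENCODE M21. A joint table of the 8 livers held counts equal to these.

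Expected counts were rounded and tested in R 4.3.3 with edgeR 4.0.16: filterByExpr (minimum count 10, minimum total 15, 13303 genes left), TMM factors, robust quasi-likelihood test, two-sided, Benjamini-Hochberg over all genes, threshold 0.05. CPM use TMM-scaled sizes, log2 CPM a prior count of 2. Of 2 identifiers for Ddit3, the one with counts was used. The steps were tested on simulated data. The genes and lists were chosen with earlier results of these data known. Named genes are the 10 members, Cebpa, in each list every called gene or else the 2 with the smallest adjusted p, and the 3 nearest genes of each called member among those averaging at least 1 CPM; others are named as chosen after their values were seen or as examples of marker or receptor genes. Alternatives were a replicate block, no robust estimation, unfiltered genes, genes of at least 1 CPM in 4 livers, unscaled library sizes, RLE factors, limma-voom, limma-trend (limma 3.58.1) on log2(TPM + 1) and log2(TPM + 0.1), DESeq2 1.42.0, and each liver left out. Removal of KO liver 4 and WT liver 2 was added after seeing the data. Figures used matplotlib 3.10.9.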

Additional observations from a re-analysis of the deposited data

Results flagged for a closer look

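Of 38 sets of 4 livers checked for 1 value far from the other 3 (CPM and mean transcript length of each gene in each genotype), 2 stood out, and chance gives about 1 in 20. Igfbp2 in KO liver 3 was at 437 CPM, against 153 to 197 CPM in the other KO livers. Igf1 in WT liver 2 was at 332 CPM, against 526 to 553 CPM in the other WT livers.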

How the results depend on the processing

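The fall of Igfals was called in all fits tried, and the direction of Prlr held in all of them, its call being lost in those named here or in the report. The number of all genes called, 274, was 176 with the replicate block, 850 with DESeq2, 177 on log2(TPM + 0.1), 431 without KO liver 4 and WT liver 2, and 108 to 372 with 1 liver left out. Of the 10 genes, 2 were called, and 1 with library size alone, no filter, the replicate block or log2(TPM + 0.1), and 1 to 2 with 1 liver left out. The 1 was Igfals each time. The adjusted p of Prlr was 0.0503, 0.0978, 0.110 and 0.0527 in those 4 fits. Same-numbered livers share only a number (correlations of their deviations from the group means 0.207, 0.0090, -0.024 and -0.067), and the block gave Igfals an adjusted p of 0.0194. The median of the 10 genes, -0.12, was 0.043 on both TPM scales, -0.25 without KO liver 4 and WT liver 2, and -0.18 to -0.09 with 1 liver left out. The median of all genes was 0.09 on log2(TPM + 1) and 0.10 on log2(TPM + 0.1). On those 2 scales Ghr turned to 0.068 and 0.069, Igf1 to 0.018 on both and Igfbp4 to 0.011 on both. Socs2 ran from -0.39 to 1.54 with 1 liver left out, turning to -0.39 without KO liver 4 and to -0.64 without that liver and WT liver 2. The cause of these shifts was not tested.

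For the lists, the growth hormone and prolactin signal genes gave 1 call with no filter, 1 with the replicate block, 4 with DESeq2, 2 without KO liver 4 and WT liver 2 and 0 to 2 with 1 liver left out. The IGF binding and reception genes gave 0 with the block, 3 with DESeq2, 0 without KO liver 4 and WT liver 2 and 0 to 1 with 1 left out. The insulin and FOXO1 genes gave 0 with no filter, 0 with the block, 0 without KO liver 4 and WT liver 2 and 0 to 1 with 1 left out. The male-biased genes gave 7 with DESeq2, 5 without KO liver 4 and WT liver 2 and 2 to 6 with 1 left out. The female-biased genes gave 0 with the block, limma-voom and both TPM scales, 2 with DESeq2, 3 without KO liver 4 and WT liver 2 (2 higher and 1 lower) and 0 to 1 with 1 left out. Genes whose transcript lengths did not overlap numbered 1 to 2 with 1 liver left out, a count that cannot fall when livers are removed. Prlr joined Ghr without KO liver 1 or WT liver 2, and Igfbp3 joined it without KO liver 3. Socs2, Igfbp1 and Igfbp2 had wide spreads between livers of a group, and limits of detection were not measured.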

Other observations

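In some sex-biased genes single livers stood apart within their genotype. Cyp2b9, a female-biased cytochrome P450, was at 6.87, 4.31, 8.41 and 0.136 CPM in KO livers 1 to 4 and at 70.2, 0.340, 63.6 and 82.1 CPM in WT livers 1 to 4. KO liver 4 and WT liver 2, the pair that stood apart across all genes, were the lowest of the 8 for it. Hsd3b5, a male-biased steroid enzyme gene, was at 0.764, 0.316, 0.914 and 11.4 CPM in KO livers 1 to 4 and at 64.1, 47.0, 14.7 and 30.1 CPM in WT livers 1 to 4. KO liver 4, the highest of all in Socs2, was the KO liver nearest to the WT group for Hsd3b5. Selenbp2, also male-biased, was at 971 CPM in that liver and at 355 to 405 CPM in the other KO livers, against 177 to 681 CPM in WT livers. These genes were chosen after their values were seen, and no relation between them was tested.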
